A study of Mus musculus with 72 samples.

Results

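The transcripts described here are those of 3 enzymes that interconvert and use ketone bodies, Bdh1, Acat1 and Oxct1, and of 3 carriers of the monocarboxylate transporter family, Slc16a1, Slc16a5 and Slc16a7. The members were taken by gene symbol and make up 6 of the 20772 genes with a symbol on the array. Each is represented by 1 probe set, so no member could be checked with a second one. The study measured RNA on 72 Affymetrix gene arrays from male C57BL/6J mice that were 8 weeks old at the start and ate either normal chow or a ketogenic diet for 4 weeks under 12 h of light and 12 h of dark. Liver and intestine, which the labels mark as IEC, were sampled at 6 zeitgeber times, ZT0, ZT4, ZT8, ZT12, ZT16 and ZT20, where ZT0 is lights on. There were 3 arrays for each of the 24 groups, and 18 for each tissue and diet. The labels' protocols also describe a fructose gavage of 4 g/kg for 7 days and 30% sucrose, and do not state whether these apply to the arrays used here. Nothing in the labels says that the 3 arrays of a group came from separate animals, so the p-values measure only the spread between these samples.

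Ketone bodies are made in liver mitochondria from the acetyl-CoA of fatty acid oxidation and are burned in other tissues. ACAT1, a mitochondrial thiolase, joins and splits acetoacetyl-CoA, BDH1 interconverts acetoacetate and beta-hydroxybutyrate, and OXCT1 activates acetoacetate for use and is known to be scarce in hepatocytes. MCT1 (Slc16a1) and MCT2 (Slc16a7) move lactate, pyruvate and ketone bodies across membranes together with protons, whereas Slc16a5 encodes a related carrier whose natural substrates are less well defined.

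In RefSeq's annotation of GRCm38.p6, Bdh1 lies at chr16:31422297-31458901, Acat1 at chr9:53580522-53610350, Oxct1 at chr15:4026428-4155344, Slc16a1 at chr3:104638664-104658462, Slc16a5 at chr11:115462405-115474398 and Slc16a7 at chr10:125219270-125389586. Start-site windows of 300 bases, 250 before and 50 after the annotated start, were at hand for 3 of the 6 members. The windows of Slc16a1 and of both starts of Bdh1 are shown because these transcripts varied with the time of day in liver, as described further on. Capitals mark the match to CACGTG, the E-box hexamer that clock factors are known to bind.
Slc16a1, GRCm38.p6 chr3:104638414-104638713, plus strand: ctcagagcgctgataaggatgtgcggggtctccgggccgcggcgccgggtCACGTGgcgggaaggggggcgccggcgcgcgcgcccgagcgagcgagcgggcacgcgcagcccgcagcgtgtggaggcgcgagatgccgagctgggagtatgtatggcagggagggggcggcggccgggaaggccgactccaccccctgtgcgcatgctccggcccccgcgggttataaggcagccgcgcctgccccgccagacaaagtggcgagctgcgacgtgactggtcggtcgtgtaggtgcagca
Bdh1, first start, GRCm38.p6 chr16:31422047-31422346, plus strand: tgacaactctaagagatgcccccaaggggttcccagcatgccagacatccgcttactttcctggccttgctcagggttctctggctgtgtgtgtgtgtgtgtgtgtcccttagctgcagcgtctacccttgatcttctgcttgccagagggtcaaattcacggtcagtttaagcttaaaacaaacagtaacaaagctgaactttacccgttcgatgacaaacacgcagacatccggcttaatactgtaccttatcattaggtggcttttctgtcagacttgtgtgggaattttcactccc
Bdh1, second start, GRCm38.p6 chr16:31428503-31428802, plus strand: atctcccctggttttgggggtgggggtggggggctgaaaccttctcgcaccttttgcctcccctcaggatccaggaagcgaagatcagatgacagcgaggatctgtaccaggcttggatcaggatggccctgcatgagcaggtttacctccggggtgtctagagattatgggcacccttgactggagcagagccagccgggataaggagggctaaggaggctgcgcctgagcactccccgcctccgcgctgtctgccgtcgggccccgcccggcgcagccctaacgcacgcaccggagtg
Exact matches on both strands were sought to AGGTCA (the half-site of nuclear receptors), to DR1 (a direct repeat of that half-site with a base between, which PPARs are known to bind and which contains the half-site), to CACGTG and to TTATGTAA (a D-box). The match in Slc16a1, at bases 51 to 56 of its window, was the only one among the 4 windows of the 3 members. CACGTG occurs in 7.15% of all 32851 start-site windows, AGGTCA in 16.3%, TTATGTAA in 0.938% and DR1 in 0.0396%. These matches describe letters in a window and say nothing of whether a factor binds there.

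Levels are given throughout as log2(intensity + 16). A fold change on this scale understates the change of dim probe sets, and levels of different probe sets are not compared with each other. Array medians ran from 105 to 121 intensity units. Hepatocyte and enterocyte markers were bright in their own tissues, with median intensities on chow of 13242 for Alb in liver and 6090 for Vil1 in intestine, while Vil1, Sis, Cdx2 and Krt20 had median intensities of 5.1 to 19.1 in chow liver. The other 2 enterocyte markers, Fabp2 and Apoa4, were bright in chow liver too, at 1552 and 7064. Of the hepatocyte markers, Alb and Ttr were 130-fold and 55.1-fold higher in liver than in intestine on chow. Cps1 was only 2.07-fold higher and Apoa1 only 1.07-fold. In the intestine, ketogenic arrays ZT0 replicate 1, ZT8 replicate 26 and ZT20 replicate 27 stood apart from their groups, with residual spreads over 1.5 times the typical one. In liver, the clock genes of chow ZT12 replicate 17 read 8.5 h and those of chow ZT8 replicate 12 read 12.4 h. Without the 3 intestine arrays, or the 2 liver arrays, the calls of the members past the filter were the same except where a value without them is given. In the intestine some markers of other cells were low on chow, with median intensities of 9.2 for Cdh5 and 14.4 for Kdr (endothelium). Those of Des (smooth muscle) and Adgre1 (macrophages) were 33.9 and 13.2. Other markers passed the filter on low values in intestine, 3 of 6 for smooth muscle and 1 of 6 for macrophages. So did 2 of 6 for T and B cells and 4 of 5 for stellate cells and fibroblasts, but 0 of 4 for endothelium. Because each sample is a bulk of many cells, fewer cells of a type and less RNA per cell cannot be told apart.

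**Figure D1:**
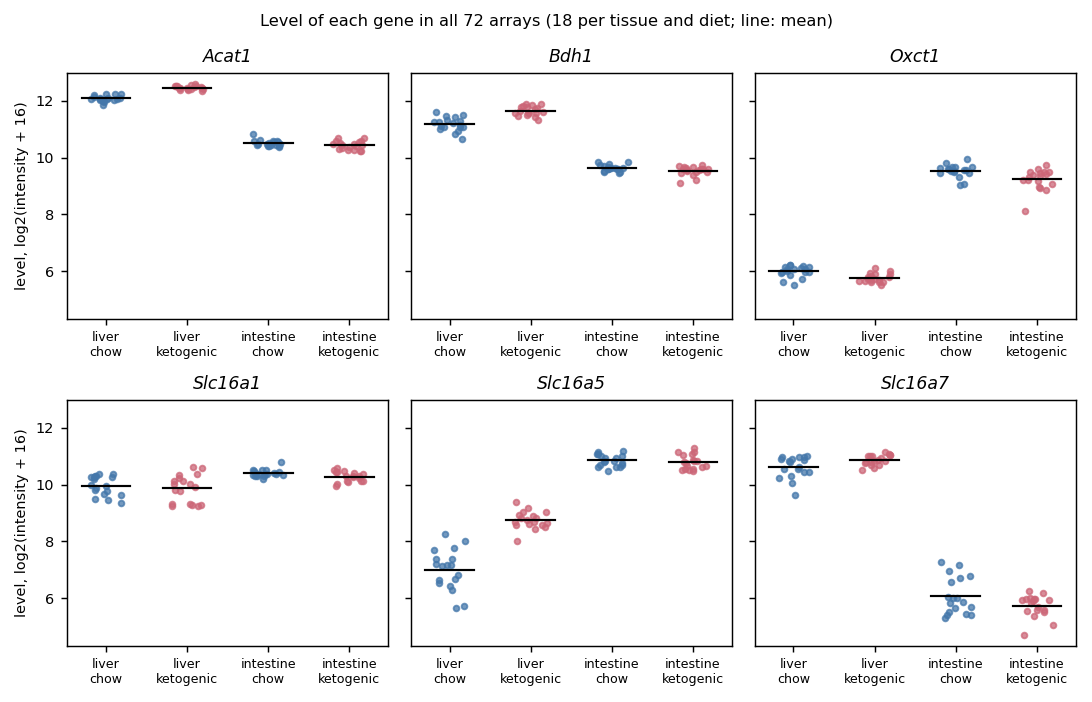
Level of each member, as log2(intensity + 16), in all 72 arrays by tissue and diet, with 1 point per array and a line at the mean of 18 arrays. All 18 ketogenic liver arrays lie above every chow liver array for Acat1, and Oxct1 and Slc16a7 lie at the low end in liver and intestine respectively.

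The tissue comparison on chow asks where each step of ketone metabolism is expressed. Bdh1 and Acat1 were higher in liver, and Slc16a1 and Slc16a5 were higher in intestine. The 4 members past the filter on low values in both tissues all differed between them, beside 84.6% of all genes tested, 42.2% higher in liver and 42.4% higher in intestine, so the count says little about these genes in particular. Acat1 was 2.97-fold higher in liver (log2 difference 1.57 ± 0.03 SE, adjusted p = 1.2e-43 by limma with Benjamini-Hochberg adjustment, 18 chow arrays per tissue). Bdh1 was 2.90-fold higher in liver (1.54 ± 0.05, adjusted p = 4.8e-35). Slc16a5 was 14.5-fold higher in intestine (-3.86 ± 0.12 for liver minus intestine, adjusted p = 1.3e-35).

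Slc16a1 differed least, 1.36-fold higher in intestine (-0.45 ± 0.05, adjusted p = 3.1e-13), and its liver and intestine arrays overlapped. No liver array overlapped any intestine array for Bdh1, Acat1, Oxct1, Slc16a5 or Slc16a7. How many of all genes separate in this way was not counted. Oxct1 in liver and Slc16a7 in intestine lay at percentiles 16.8 and 18.1 of mean level over all genes, below the 40th percentile that the filter required, and were taken from a fit without a filter, in which 76.6% of genes differed between the tissues. In that fit Oxct1 was higher in intestine (-3.54 ± 0.07, adjusted p = 2.5e-45) and Slc16a7 higher in liver (4.52 ± 0.13, adjusted p = 4.8e-37). The files used here hold no detection call, and the dimmer tissue lies at the array's low end, so no fold is given for these 2 genes.

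On the ketogenic diet, liver Bdh1, Acat1, Slc16a5 and Slc16a7 rose and Slc16a1 did not pass the test. Of the 5 members tested in liver, 4 were higher and 0 were lower, beside 19.3% of all 12463 genes tested that were higher and 29% that were lower, 48.3% in all. The members' median difference was 0.38 on the log2 scale, against -0.03 over all genes tested.

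Acat1 had the least scatter of the enzymes. Its liver level ran from 11.84 through a median of 12.07 to 12.25 on chow and from 12.36 through 12.47 to 12.58 on the ketogenic diet. All 18 ketogenic arrays lay above every chow array. The rise was 1.30-fold (log2 0.38 ± 0.03 SE, n = 18 per diet, limma adjusted p = 1.6e-11), and the difference at single time points ran from 0.32 at ZT0 to 0.42 at ZT16.

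Liver Bdh1 had a lowest, median and highest level of 10.64, 11.18 and 11.61 on chow and of 11.31, 11.63 and 11.90 on the ketogenic diet. The diets overlapped over the whole day, with 10 of 18 ketogenic arrays above every chow array, but did not overlap within any of the 6 time points. Bdh1 rose 1.39-fold (0.48 ± 0.05, adjusted p = 1.3e-08). In liver, 168 of the 12463 genes tested rose more.

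Oxct1 in liver stayed dim on both diets, at 5.53 to 6.22 on chow and 5.51 to 6.12 on the ketogenic diet, with medians of 6.02 and 5.73. The ranges overlapped almost wholly over the day, and at 3 of 6 time points all ketogenic arrays lay below all chow arrays. Without the filter the fit gave a difference of -0.22 ± 0.05 (adjusted p = 0.0020), where 17.6% of genes were lower.

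Slc16a5 changed most among the members. Its liver level ran from 5.66 through 7.14 to 8.25 on chow and from 8.00 through 8.72 to 9.38 on the ketogenic diet, and 17 of 18 ketogenic arrays lay above every chow array. The diets did not overlap at any of the 6 time points. The rise was 3.39-fold (1.76 ± 0.16, adjusted p = 7.8e-10), 4 of the 12463 genes tested rose more, and a pseudocount of 1 in place of 16 gave a log2 difference of 1.92. The difference between diets was 2.45 at ZT0 and 1.31 at ZT12. Slc16a5 was also the most scattered member on chow, with a within-group SD of 0.68 against 0.31 on the ketogenic diet. Its ZT16 chow arrays stood at 7.76, 5.71 and 8.25.

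Slc16a7, the MCT2 gene, had liver levels of 9.64, 10.70 and 10.99 on chow and of 10.51, 10.85 and 11.13 on the ketogenic diet (lowest, median and highest). The diets overlapped, with 6 of 18 ketogenic arrays above every chow array. It rose 1.19-fold (0.26 ± 0.09, adjusted p = 0.0177). The within-group SD was 0.39 on chow and 0.10 on the ketogenic diet, and the lowest chow array was ZT4 replicate 6.

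Liver Slc16a1, the MCT1 gene, ran from 9.36 through 9.97 to 10.37 on chow and from 9.25 through 9.96 to 10.61 on the ketogenic diet. The daily mean difference of -0.09 ± 0.05 did not pass the test (adjusted p = 0.112), and it passed without the 2 chow arrays whose clock genes read another time (-0.11, adjusted p = 0.0466) or without ZT8 replicate 12 of these alone (adjusted p = 0.0436). The difference had both signs over the day. It was 0.25 at ZT0, where all 3 ketogenic arrays lay above all 3 chow arrays, and -0.30 at ZT8 and -0.26 at ZT12, where all 3 lay below.

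Among the cell type markers in liver, the summed intensity of the 4 adipocyte markers ran from 282 to 490 on chow and from 434 to 2587 on the ketogenic diet. Both adipocyte markers past the filter rose, Cfd by 2.81 ± 0.22 (adjusted p = 3.7e-11) and Plin1 by 0.13 ± 0.04 (adjusted p = 0.0135). The other 2, below the filter, had median intensities on chow and on the ketogenic diet of 38.5 and 40.01 for Adipoq and of 66.4 and 74.5 for Lep. Of the enterocyte list, 2 genes were tested in liver, both bright there on chow. Fabp2, a fatty acid binding protein, rose by 0.57 ± 0.08 (limma adjusted p = 3.3e-06). Apoa4 had a difference of -0.21 that did not pass (adjusted p = 0.106). Whether other cells have a part in the members' differences was not tested.

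**Figure D2:**
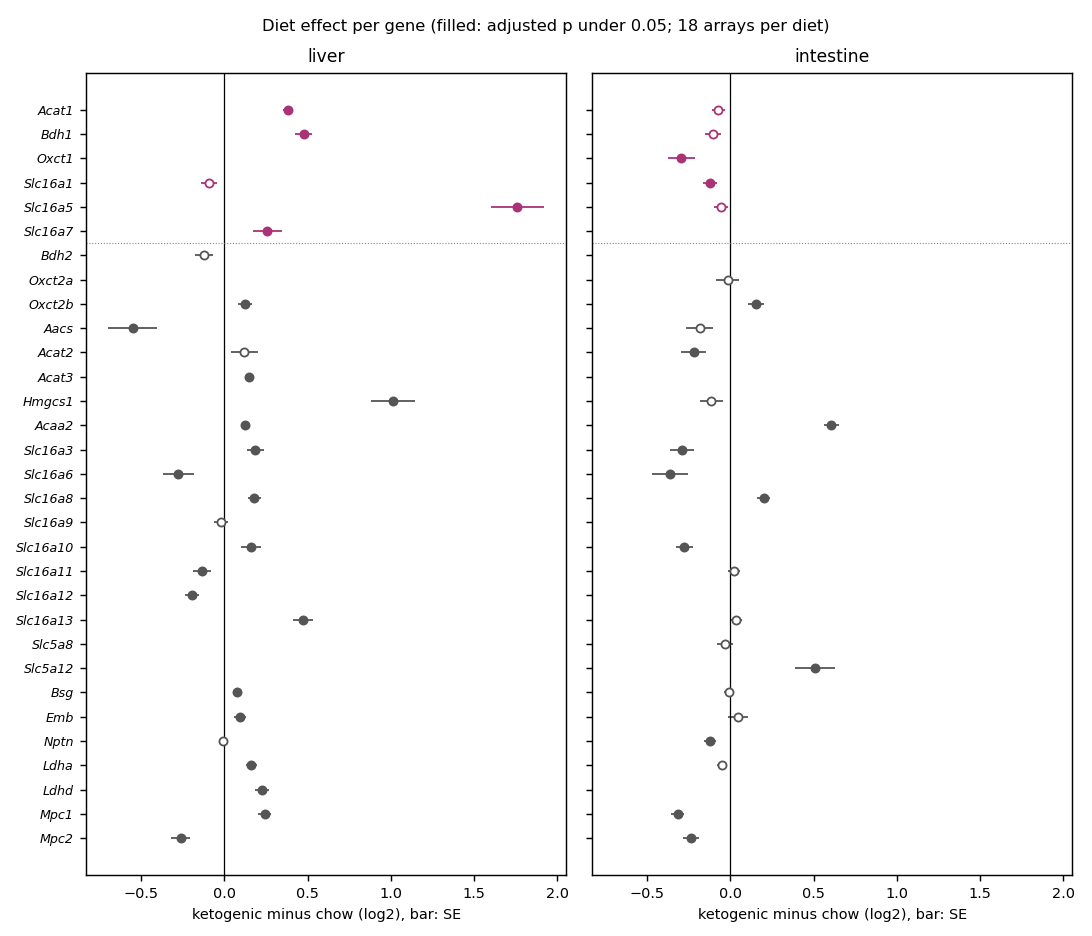
Ketogenic minus chow difference (log2, horizontal axis, bars are SE) of the members, above the dotted line, and of the related genes tested, below it, in liver and intestine with 18 arrays per diet. Filled points have an adjusted p under 0.05, and the members' filled points lie above 0 in liver and below 0 in intestine.

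In the intestine all members tested except Oxct1 differed little between the diets, and the members that passed the test were lower. Of the 5 tested, 0 were higher and 2 were lower, Oxct1 and Slc16a1, beside 19.7% of all genes higher and 31.2% lower, 50.9% in all, so the share of members that fell is near the background. The members' median difference was -0.10, against -0.02 over all genes tested.

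Intestinal Oxct1 ran from 9.03 through 9.56 to 9.95 on chow and from 8.10 through 9.34 to 9.74 on the ketogenic diet. The ranges overlapped, and the lowest array was ketogenic ZT0 replicate 1, one of those that stood apart. Oxct1 fell 1.23-fold (-0.30 ± 0.08, adjusted p = 0.0037), and by 0.19 on the log2 scale without the 3 arrays (adjusted p = 0.0094). The difference ran from -0.69 at ZT0 to -0.06 at ZT8. In intestine, 650 of the 12463 genes tested fell more than Oxct1.

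Intestinal Slc16a1 ran from 10.19 through 10.39 to 10.78 on chow and from 9.96 through 10.29 to 10.60 on the ketogenic diet, with wide overlap. Its fall of -0.12 ± 0.04 (adjusted p = 0.0176) did not pass without the 3 arrays (-0.07, adjusted p = 0.0685) or with quantile normalization (-0.06, adjusted p = 0.249). For Bdh1 the chow median was 9.63, the ketogenic median 9.58 and the difference -0.10 ± 0.05 (adjusted p = 0.0637). Acat1 had medians of 10.49 and 10.45 and a difference of -0.07 (adjusted p = 0.122), and both enzymes passed the test with median centring.

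Slc16a5, which rose in liver, had intestinal levels of 10.49, 10.83 and 11.20 on chow and of 10.48, 10.77 and 11.28 on the ketogenic diet. The difference of -0.05 did not pass (adjusted p = 0.275), but was -0.11 without the 3 arrays (adjusted p = 0.0034) and -0.08 without ketogenic ZT0 replicate 1 alone (adjusted p = 0.0348). Slc16a7 stayed dim in intestine, at 5.30 to 7.29 on chow and 4.72 to 6.26 on the ketogenic diet, and the fit without a filter gave -0.37 ± 0.16 (adjusted p = 0.0651), where 20% of genes were lower. The summed intensity of the 6 T and B cell markers in intestine ran from 448 to 798 on chow and from 333 to 690 on the ketogenic diet, and 1 of its 2 tested markers, Cd8a, was lower. Of the 6 enterocyte markers, all tested, Sis (-0.39), Cdx2 (-0.13) and Vil1 (-0.07) were lower and Apoa4 (0.52) was higher, and their summed intensity ran from 38008 to 47215 on chow and from 36694 to 48105 on the ketogenic diet. The macrophage marker Cd68 was lower (-0.28, adjusted p = 0.0023), the 1 tested of 6, and the hepatocyte marker Alb was higher (1.22 ± 0.45, adjusted p = 0.0248), 1 of 4 tested. The part of these cells in the members' differences was not tested.

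The diet effect itself was compared between tissues by an interaction term, for which 31.7% of the 10871 genes tested in both tissues differed and 17.3% differed with the larger value in liver. Of the 4 members tested, 3 differed, all with the larger value in liver. The diet effect was larger in liver by 1.82 ± 0.17 for Slc16a5 (adjusted p = 1.3e-12), by 0.58 ± 0.07 for Bdh1 (adjusted p = 1.8e-09) and by 0.45 ± 0.05 for Acat1 (adjusted p = 4.4e-11). For Slc16a1 the difference was 0.03 ± 0.06 (adjusted p = 0.753). In the fit without a filter, where 20.2% of genes differed, Slc16a7 gave 0.62 ± 0.19 (adjusted p = 0.0113) and Oxct1 gave 0.07 (adjusted p = 0.711).

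**Figure D3:**
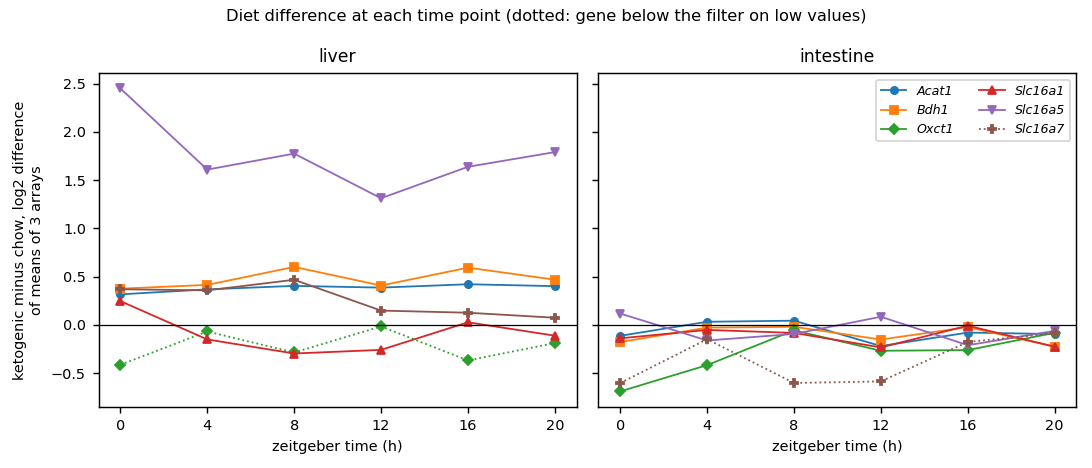
Ketogenic minus chow difference of group means (log2, 3 arrays per diet) at each zeitgeber time in hours, by member, in liver and intestine, with dotted lines for a member below the filter on low values. In liver, Slc16a5 lies between 1.31 and 2.45 and Acat1 and Bdh1 lie above 0 at every time point, while Slc16a1 crosses 0.

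The time courses ask whether a member has a daily rhythm on each diet, judged by a fitted 24 h cosine. In liver, 3 of the 5 members tested had a rhythm on chow and 2 on the ketogenic diet, beside 17.6% and 36.5% of all genes tested. The share on the ketogenic diet is near the background. Slc16a1 had the clearest of the members' rhythms.

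Liver Slc16a1 on chow stood at 10.26, 10.28 and 10.28 at ZT0, at 9.46, 9.48 and 9.63 at ZT12 and at 10.37, 10.36 and 10.19 at ZT20. On the ketogenic diet it stood at 10.59, 10.35 and 10.61 at ZT0, at 9.25, 9.29 and 9.25 at ZT12 and at 10.02, 10.23 and 10.33 at ZT20. On both diets the arrays near lights on were high and those near lights off were low, with no overlap between ZT0 and ZT12. The amplitude was 0.42 ± 0.05 with a peak at ZT22.2 ± 0.49 on chow (adjusted p = 2.7e-06) and 0.62 ± 0.05 with a peak at ZT22.1 ± 0.33 on the ketogenic diet (adjusted p = 5.4e-10). The rhythms did not pass the test of a difference between diets (unadjusted p = 0.0426, adjusted p = 0.291), which 1.19% of genes passed. Without the 2 chow arrays whose clock genes read another time, the chow amplitude was 0.37 (adjusted p = 7.6e-05). In the authors' deposited table the JTK_CYCLE q-value was 0.0064 on chow and 8.6e-04 on the ketogenic diet. The phase lag given there was 2 h on chow and 0 h on the ketogenic diet, which differ from the fitted peaks. The BIO_CYCLE q-values in the authors' deposited table were 0.120 and 0.176.

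Liver Bdh1 peaked in the light phase, with an amplitude of 0.21 and a peak at ZT4.8 on chow (adjusted p = 0.0131) and of 0.19 and a peak at ZT5.9 on the ketogenic diet (adjusted p = 0.0167). Its ketogenic arrays stood at 11.90, 11.87 and 11.80 at ZT8 and at 11.45, 11.44 and 11.51 at ZT16, with no overlap. The call on chow was lost without ZT16 replicate 8 (adjusted p = 0.0557) or ZT4 replicate 4 (adjusted p = 0.0508), and was kept without the 2 chow arrays whose clock genes read another time (0.24, adjusted p = 0.0025). The ketogenic call was lost in the test of any time difference (adjusted p = 0.0902). The authors' deposited table gave JTK_CYCLE q-values of 0.496 and 0.0259 for chow and ketogenic liver, and BIO_CYCLE q-values of 0.437 and 0.239.

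Liver Slc16a5 had an amplitude of 0.56 and a peak at ZT12.6 on chow (adjusted p = 0.0285), and of 0.20 on the ketogenic diet (adjusted p = 0.568). The chow call was lost without any 1 of 5 arrays, ZT0 replicate 22 (adjusted p = 0.103), ZT12 replicates 16 (0.0618) and 18 (0.0906) and ZT16 replicates 7 (0.0511) and 9 (0.0504). It was also lost in the test of any time difference (adjusted p = 0.164), and without the 2 chow arrays whose clock genes read another time the amplitude was 0.57 (adjusted p = 0.0472). In the authors' deposited table the chow q-value was 0.371 by JTK_CYCLE and 0.324 by BIO_CYCLE. The difference between the diets' rhythms did not pass (adjusted p = 0.563). Acat1 and Slc16a7 had no called rhythm in liver on either diet, and Slc16a7 on chow was called without ZT16 replicate 8 (adjusted p = 0.0313). Of the 5 members tested, 0 passed the test of a diet effect that varies with time (limma, adjusted p under 0.05), which 0.353% of genes passed, and Slc16a1 had an unadjusted p of 0.0267.

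In the intestine Slc16a5 alone was called, so 1 of the 5 members tested had a rhythm on each diet, beside 8.87% of genes on chow and 14.6% on the ketogenic diet. On chow it stood at 10.49, 10.61 and 10.62 at ZT0 and at 11.06, 11.08 and 11.13 at ZT12. On the ketogenic diet it stood at 11.04, 10.55 and 10.48 at ZT0 and at 11.16, 11.09 and 11.28 at ZT12. ZT12 was above ZT0 on both diets with no overlap, and the high ketogenic ZT0 value was that of replicate 1. The amplitude was 0.26 with a peak at ZT11.9 on chow (adjusted p = 0.0019) and 0.23 with a peak at ZT11.8 on the ketogenic diet (adjusted p = 0.0039). Without the 3 arrays that stood apart the ketogenic amplitude was 0.30 (adjusted p = 1.1e-05). The authors' deposited table gave JTK_CYCLE q-values of 0.0031 and 0.240 for chow and ketogenic intestine, and BIO_CYCLE q-values of 0.253 and 0.552.

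Intestinal Slc16a1 peaked at ZT21.5 on chow, with an amplitude of 0.11 that was not called (adjusted p = 0.253), whereas the authors' deposited table gave a q-value of 0.0170 by JTK_CYCLE and of 0.452 by BIO_CYCLE. On the ketogenic diet its amplitude was 0.10 (adjusted p = 0.310), and 0.18 without the 3 arrays that stood apart (adjusted p = 0.0101). Intestinal Oxct1 on the ketogenic diet had an amplitude of 0.27 (adjusted p = 0.0936), and was called without ZT12 replicate 31 (adjusted p = 0.0193). No member passed the test of a rhythm difference between diets in intestine, which 0.0401% of genes passed, or of a diet effect that varies with time, which 0.0321% passed. By limma, 0 of the 5 members tested had an unadjusted p under 0.05 in either test, the lowest being 0.392 for Acat1 in the first and 0.179 for Slc16a5 in the second.

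**Figure D4:**
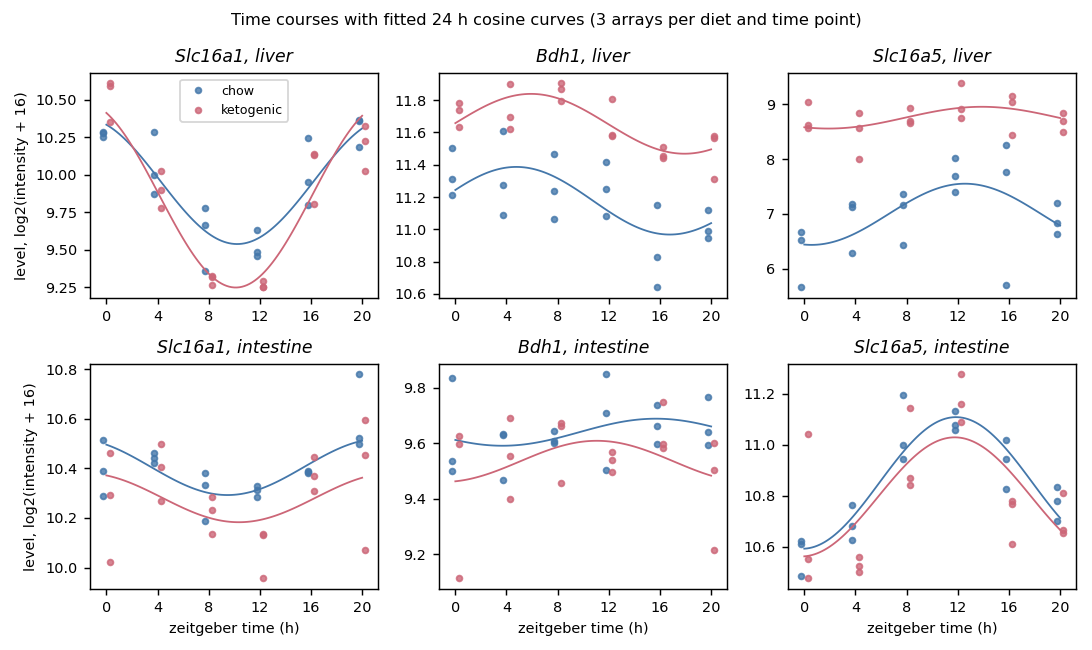
Levels of Slc16a1, Bdh1 and Slc16a5, as log2(intensity + 16), against zeitgeber time in hours in liver and intestine, with 1 point per array (3 per diet and time) and the fitted 24 h cosine of each diet. Liver Slc16a1 falls from ZT0 to ZT12 on both diets, and intestinal Slc16a5 peaks near ZT12 on both.

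Genes around the members moved in both directions, as did the genes at large. Of all genes tested, 19.3% were higher and 29% lower in liver, and 19.7% were higher and 31.2% lower in intestine. Of 9 other ketone pathway genes, 7 were tested in liver, and 4 were higher and 1 lower. Hmgcs1, the cytosolic HMG-CoA synthase of cholesterol synthesis, rose by 1.01 ± 0.13 (adjusted p = 4.6e-07). Acat3, a thiolase gene, rose by 0.15 ± 0.02 (adjusted p = 1.1e-05). Aacs, which activates acetoacetate in the cytosol for lipid synthesis, fell by 0.55 on the log2 scale (adjusted p = 0.0030). The list's median difference was 0.12.

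In the intestine 6 of the 9 were tested, and 2 were higher and 1 lower. Acaa2, a thiolase of fatty acid oxidation, rose by 0.61 ± 0.04 (adjusted p = 1.2e-11), Oxct2b rose by 0.15 ± 0.05 (adjusted p = 0.0120), and Acat2, the cytosolic thiolase, fell by 0.22 on the log2 scale (adjusted p = 0.0127). The list's median was -0.07.

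Of 15 other carriers and their partner proteins, 11 were tested in liver, and 6 were higher and 3 lower, with a median of 0.07. Slc16a13 rose most, by 0.47 ± 0.06 (adjusted p = 2.1e-07), and Slc16a6 fell by 0.28 on the log2 scale (adjusted p = 0.0157). Bsg, the partner that takes MCT1 to the membrane, rose by 0.07 ± 0.02 (adjusted p = 0.0124). In intestine 11 were tested, and 2 were higher and 4 lower, with a median of -0.01, shares near those of all genes tested. Slc5a12, a sodium-coupled lactate carrier, rose by 0.51 ± 0.12, and Slc16a3, the lactate exporter MCT4, fell by 0.29 on the log2 scale.

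Of 5 lactate and pyruvate genes, 4 were tested in liver, where 3 rose, Ldha, Ldhd and Mpc1, and Mpc2 fell by 0.26 on the log2 scale. In intestine 3 were tested, and both mitochondrial pyruvate carrier genes fell, Mpc1 by 0.32 and Mpc2 by 0.24. The 3 receptor genes for ketone bodies and lactate, Hcar1, Hcar2 and Ffar3, were below the filter in both tissues.

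The patterns most like each member were sought by Pearson's r over the 12 group means of a tissue, which share arrays and the diet difference, and are given as a description. Liver Acat1 was nearest to Hadhb (r = 0.991), Acadm (0.990) and Cyp4a14 (0.986), all genes of fatty acid oxidation. Among the genes near liver Bdh1 were Vnn1 (0.965) and Acaa1a (0.965), and Slc16a5 was nearest to Them7 (0.975), Sucla2 (0.970) and Mmut (0.965). Slc16a1 was nearest to Efnb1 (0.983), Oser1 (0.976) and Actn4 (0.975), and Slc16a7 to Slc25a43 (0.903), Pccb (0.896) and Wnt11 (0.886). In intestine Oxct1 was nearest to Gm2a (0.943), Slc16a1 to Tmem102 (0.974), Slc16a5 to the amino acid carrier gene Slc6a19 (0.941), Bdh1 to Strap (0.909) and Acat1 to Tcea1 (0.933).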

How the data were processed

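The deposited table holds intensities, which the authors summarised by PLIER (Affymetrix Expression Console 1.1.1), per the submitters' processing notes, and the background and normalization settings are not given in the sources used here. The deposited workbook adds group mean intensities and p-values and q-values from Cyber-T, JTK_CYCLE and BIO_CYCLE, per the file headers. Of 35556 probe sets, 23163 had 1 symbol, of which 1374 came from the workbook, giving 20772 genes with the probe set of highest mean kept. Levels were log2(intensity + 16), with no further normalization, and a gene was tested in a tissue if its mean was above the 40th percentile (12463 genes per tissue, 10871 in both). Tests were limma 3.58.1 in R 4.3.3 with lmFit, eBayes and Benjamini-Hochberg adjustment over all genes tested, at 0.05. The diet effect is the mean over 6 time points, rhythms are F tests of a 24 h cosine per diet, and tissue terms come from 1 fit over both tissues. The fits were tested on simulated data. The number of arrays limits the precision. The highest correlation between 2 arrays was 0.994 and 0 pairs were identical.

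The members and the gene lists were chosen with earlier results of these data known. Members are always named, other genes by list or, for likeness, as the 3 highest r per member and tissue, without predicted genes and RIKEN clones. Some genes that these lists or the likeness rule took are not reported here, and list counts and medians are over the others. Start-site sequences are RefSeq's. Alternatives were no filter or the 60th percentile, median centring, quantile normalization, a pseudocount of 1, a replicate block, an intensity trend, a test of any time difference, ZT as an additive factor, and arrays left out.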

Additional observations from a re-analysis of the deposited data

Results flagged for a closer look

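By a test of the difference itself, the diet effect differed between the tissues for 3 of the 4 members tested, beside 31.7% of genes tested. In the fit without a filter, where 20.2% of genes differed, Slc16a7 also differed and Oxct1 did not. For Slc16a5 the liver effect exceeded the intestinal one by 1.82 on the log2 scale, for Bdh1 by 0.58 and for Acat1 by 0.45. For Slc16a7 it exceeded it by 0.62 in the fit without a filter, where the intestinal level was at the low end of the array.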

How the results depend on the processing

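Intensities carry no read depth, and the dimmest members, liver Oxct1 and intestinal Slc16a7, were tested only without a filter. Over single members, 2794 recomputed values kept their side of the threshold, 15 newly passed, 11 no longer passed and 1 diet or tissue effect reversed. An amplitude difference between diets that changed sign but passed in neither fit was counted among the 2794. For liver Bdh1 that difference ran from -0.062 to 0.019 with each array left out in turn. The reversed one was the difference in Slc16a1's diet effect between tissues, -0.019 without the 3 intestine arrays that stand apart. The cause of the changes below was not tested unless the setting itself changes the genes or arrays tested. Each member has 1 probe set, so a second probe set of a member could not be run.

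Without a filter, 3857 genes were higher in liver and 3826 in intestine, 15902 differed between the tissues, 98 had a rhythm difference and 25 a diet by time effect in liver, and 1 member was lower in liver (Oxct1). With the 60th percentile, 1353 and 1151 genes were higher, 5843 differed between the tissues, and 2 and 1 had an intestinal rhythm difference and diet by time effect. Slc16a5, at percentile 59.4 of mean level in liver, was not tested in liver or between the tissues at that filter. A pseudocount of 1 gave 2 intestinal diet by time genes. With quantile normalization the split of higher and lower genes was 2747 to 2772 in liver and 3140 to 3027 in intestine, against 2402 to 3617 and 2453 to 3888, with 77 liver diet by time genes, 20 intestinal rhythm differences and 1 member lower in intestine. Median centring gave 4 members lower in intestine and 14 rhythm differences, and the intensity trend gave 11. Without the 3 intestine arrays, 1925 genes had a rhythm on chow, 41 a rhythm difference and 116 a diet by time effect, and 2 members had a rhythm on the ketogenic diet. Without the 2 liver chow arrays, 1 member was lower (Slc16a1) and 18 genes had a diet by time effect. The test of any time difference gave 1249 genes in liver and 594 in intestine on chow, and 1 member in ketogenic liver. Its adjusted p was 0.164 for liver Slc16a5 on chow and 0.0902 for liver Bdh1 on the ketogenic diet.

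Leaving out each array in turn gave 86 to 450 rhythm differences and 9 to 81 diet by time genes in liver, 3 to 20 and 1 to 44 in intestine, 0 to 1 member lower in liver and 1 to 2 members with a rhythm in ketogenic intestine. Intestinal Bdh1 passed the diet test without any 1 of 6 arrays, chow ZT0 replicate 22 and ZT12 replicate 32 and ketogenic ZT0 replicates 2 and 17, ZT4 replicate 20 and ZT20 replicate 10 (lowest adjusted p 0.0337).

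Samples share only a number: those of the same number had a median correlation of deviations of 0.02 (22 pairs) against -0.01 for different numbers (86 pairs). The replicate block gave 3434 genes with a diet effect that differed between tissues, against 3445, and changed no member's call.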
